A study of Homo sapiens with 3 samples.

Results

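A set of 902 cell barcodes was described that were rich in RNA but held almost no MALAT1, a nuclear long noncoding RNA, and almost no RNA of the mitochondrial genome. They came from 3 single-cell RNA libraries of FaDu, an established line from a human hypopharyngeal squamous carcinoma, and were chosen by their measured values: at least 10000 unique molecular identifiers (UMIs, tags that count RNA molecules), MALAT1 under 0.1% of UMIs and the 37 genes of the mitochondrial genome (MT) together under 0.5%. They made up 902 of 21857 barcodes, and 902 of the 16733 with at least 10000 UMIs, and are called MALAT1/MT-low barcodes here. The comparison barcodes were 10854 of the same libraries with at least 10000 UMIs, MALAT1 at 0.1% or more and MT at 2% to 8%.

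Every group was 1 library. The resistant TPF cinobufotalin library came from a FaDu subline with acquired resistance to TPF (paclitaxel, cisplatin and 5-fluorouracil given together) that was treated with TPF and cinobufotalin, a steroid of the bufadienolide class. The resistant TPF library came from the resistant subline treated with TPF, and the FaDu cinobufotalin library came from FaDu cells treated with cinobufotalin. All 3 are drug-treated and all descend from 1 line, with no untreated library analysed here, and the labels give neither doses nor times. Cells were washed in a red cell lysis buffer and loaded on the 10x 3' platform, per the labels' protocols, so a barcode stands for a droplet and may hold a cell, part of a cell or several cells.

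MALAT1 and NEAT1 stay in the nucleus, and most cells with an intact nucleus give abundant MALAT1 in single-cell libraries. Mitochondria carry their own small genome, whose transcripts stay inside the organelle. Most mitochondrial proteins, including the majority of respiratory chain subunits, are encoded in the nucleus, and their messenger RNAs are translated in the cytosol by ribosomes. Long genes spend more time in transcription and give more unspliced nuclear RNA than short ones.

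The files held 8888, 6081 and 6888 barcodes with 137553238, 138850198 and 167448330 UMIs in the resistant TPF cinobufotalin, resistant TPF and FaDu cinobufotalin libraries. The MALAT1/MT-low barcodes held 4.12%, 1.68% and 17.8% of those UMIs in the same library order. The libraries shared 12 to 19 barcode sequences pair by pair, none of them among the MALAT1/MT-low barcodes. Squamous epithelial markers were present in the MALAT1/MT-low barcodes, and all 14 were measured there. Their summed level was 4765, 5035 and 8610 CPM in MALAT1/MT-low barcodes and 3923, 4821 and 7490 CPM in comparison barcodes, again in that library order. CPM here and below are UMIs per 1000000 of a total scaled by trimmed mean (TMM) factors, with MALAT1 and the MT genes left out. The direction rests on that scaling: per total UMIs the sums were 3307, 4678 and 7201 in MALAT1/MT-low barcodes and 5041, 6293 and 8281 in comparison barcodes. Of the other cell types, 6 of 8 fibroblast markers (COL1A2, COL3A1 and DCN among them), 7 of 10 immune (PTPRC, CD3E), 2 of 7 endothelial (KDR, CLDN5), 3 of 8 erythroid and 3 of 7 platelet markers (PPBP) had 0 UMIs in every MALAT1/MT-low barcode. The summed levels of the 8 fibroblast, 10 immune, 7 endothelial and 8 erythroid markers lay between 2.22 and 9.94 CPM in MALAT1/MT-low barcodes and between 4.18 and 9.88 CPM in comparison barcodes. The 7 platelet markers summed to 31.4 to 42.6 CPM in MALAT1/MT-low barcodes and 25.2 to 28.0 CPM in comparison barcodes, nearly all of it GNG11, a G protein subunit, and per total UMIs to 26.3 to 29.5, against 31.0 to 34.6.

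The share of barcodes with at least 10000 UMIs that were low in both was 2.56% (162 of 6325, 2.19% to 2.98%) in the resistant TPF cinobufotalin library, 1.23% (56 of 4567, 0.928% to 1.59%) in the resistant TPF library and 11.7% (684 of 5841, 10.9% to 12.6%) in the FaDu cinobufotalin library. These are exact 95% binomial intervals, which here and below cover counting error only. The FaDu interval lay above both resistant ones and the resistant TPF cinobufotalin interval lay above the resistant TPF interval, but with 1 library a group, library, line and treatment cannot be told apart, and nothing was tested between groups.

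Low MT nearly always came with low MALAT1, and the reverse did not hold. Of the barcodes with at least 10000 UMIs and MT under 0.5%, 98.8% (162 of 164), 93.3% (56 of 60) and 94.1% (684 of 727) had MALAT1 under 0.1% in the resistant TPF cinobufotalin, resistant TPF and FaDu cinobufotalin libraries. Of those with MALAT1 under 0.1%, 21.7% (162 of 745), 14.7% (56 of 380) and 22.4% (684 of 3052) had MT under 0.5%. Whatever their MT, 745 of 6325, 380 of 4567 and 3052 of 5841 barcodes with at least 10000 UMIs had MALAT1 under 0.1%. Low MALAT1 was thus found in most such barcodes of the FaDu cinobufotalin library. A further 347, 161 and 1640 barcodes were low in MALAT1 with MT at 2% to 8%, and 2, 4 and 43 were low in MT with MALAT1 at 0.1% or more. These counts follow from the rule and carry no test.

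**Figure D1:**
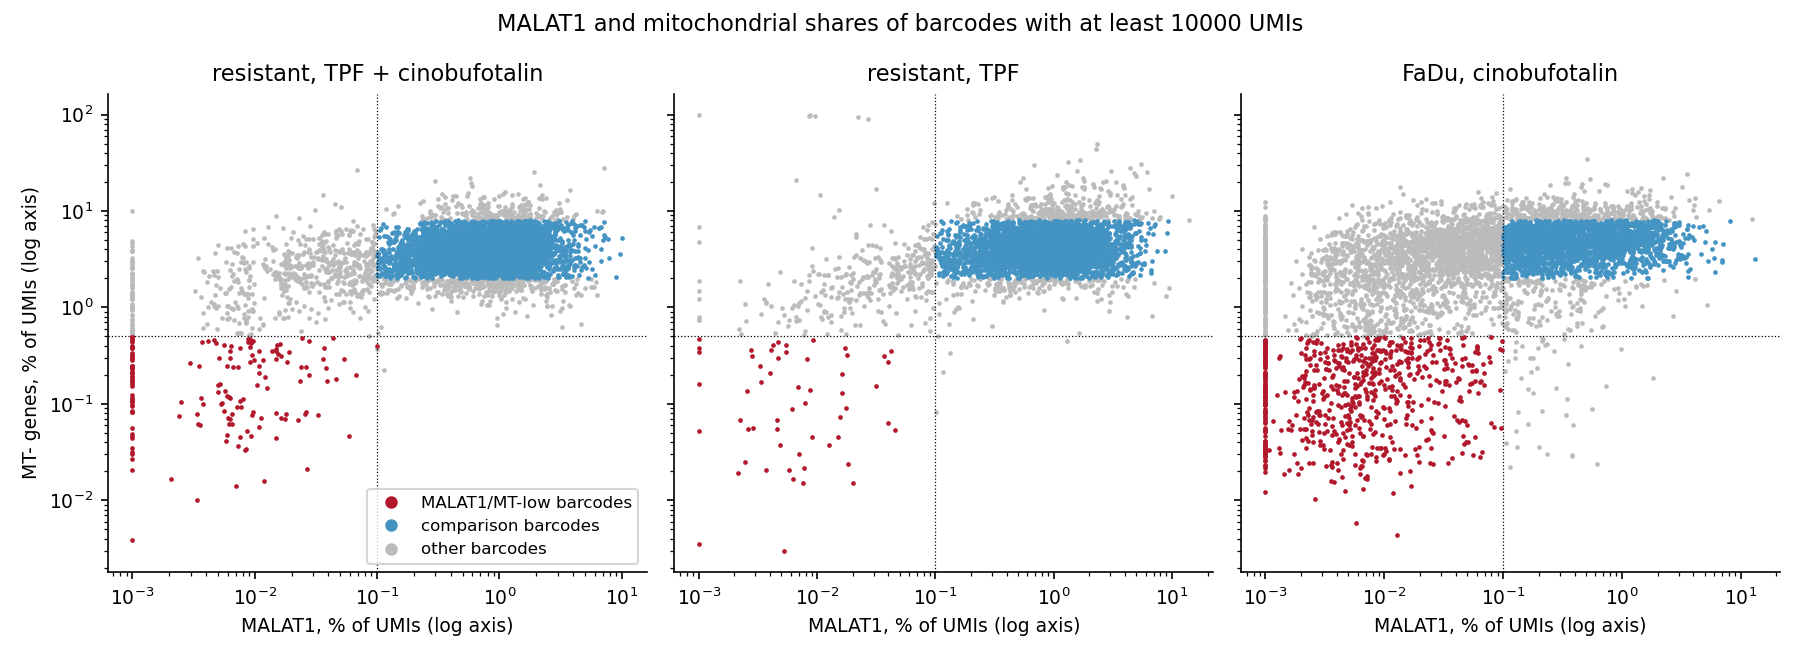
MALAT1 (x axis) and MT genes (y axis) as percent of UMIs on log axes, 1 point per barcode with at least 10000 UMIs and 1 panel per library, with values under 0.001% (MALAT1) or 0.003% (MT) drawn at that limit and dotted lines at 0.1% and 0.5%. The lower right quadrant holds 2, 4 and 43 barcodes in the resistant TPF cinobufotalin, resistant TPF and FaDu cinobufotalin libraries, while the upper left quadrant is well filled in each.

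The MALAT1/MT-low barcodes were not free of either RNA. Their median MALAT1 count was 1, 2.5 and 2 UMIs per barcode in the resistant TPF cinobufotalin, resistant TPF and FaDu cinobufotalin libraries, against 161, 254 and 92 UMIs in comparison barcodes. Exactly 0 MALAT1 UMIs were found in 53 of 162 (32.7%), 6 of 56 (10.7%) and 115 of 684 (16.8%) of them. Median MT was 0.174%, 0.116% and 0.144% of UMIs, against 3.87%, 4.11% and 4.69% in comparison barcodes. The MT limit cut through a continuous range. There were 20, 5 and 62 barcodes just inside it at 0.4% to 0.5% and 14, 10 and 59 just outside it at 0.5% to 0.6%. The MALAT1 limit did so less, with 1, 0 and 6 barcodes at 0.08% to 0.1% and 2, 2 and 4 at 0.1% to 0.12%. At the UMI limit, 12, 1 and 0 lay at 10000 to 11000 UMIs and 12, 2 and 5 at 9000 to 10000. Below 10000 UMIs, 155, 188 and 96 more barcodes were low in both.

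The MALAT1/MT-low barcodes included many of the deepest of each library. Their median was 18828.5 UMIs (10056 to 191895) in the resistant TPF cinobufotalin library, 39932.5 (10920 to 152815) in the resistant TPF library and 37145.5 (11630 to 213154) in the FaDu cinobufotalin library, against 19437.5, 28749 and 23701 UMIs in comparison barcodes. The median was thus higher than in comparison barcodes in 2 of 3 libraries. Above 60000 UMIs, 22 of 23, 7 of 24 and 97 of 176 barcodes were low in both, which is 95.7% (78.1% to 99.9%), 29.2% (12.6% to 51.1%) and 55.1% (47.4% to 62.6%). Between 20000 and 30000 UMIs the share was 1.17%, 0.497% and 6.35%. Barcodes over 2 times their library's median UMIs made up 16.7%, 12.5% and 25.1% of the MALAT1/MT-low barcodes and 0.342%, 0.300% and 0.813% of the comparison barcodes. Doublets were not called, and their part in these depths was not tested.

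**Figure D2:**
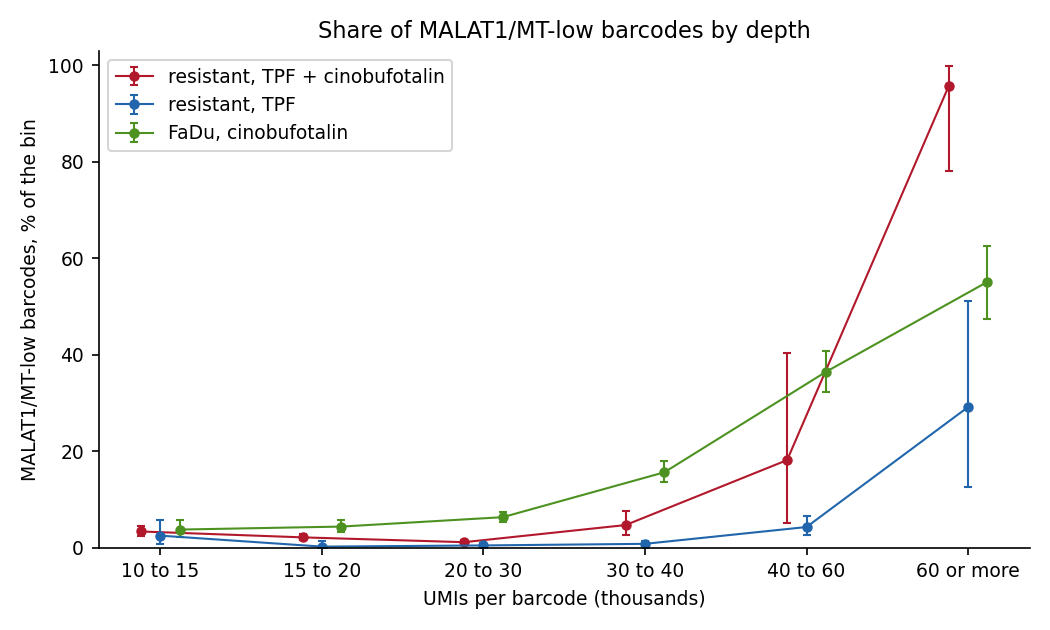
Percent of barcodes that were MALAT1/MT-low (y axis) in each range of UMIs per barcode (x axis), 1 line per library, with exact 95% binomial intervals. The share is 3.39%, 2.53% and 3.78% at 10000 to 15000 UMIs and 95.7%, 29.2% and 55.1% at 60000 or more in the resistant TPF cinobufotalin, resistant TPF and FaDu cinobufotalin libraries.

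In the resistant TPF cinobufotalin library the deepest of these barcodes differed from the rest. The 22 with at least 60000 UMIs held 49.8% of all UMIs of its MALAT1/MT-low barcodes, and ribosomal protein genes took a median of 19.2% of their UMIs, against 28.9% in the other 140. In the FaDu cinobufotalin library the 97 deepest held 31.5% of the UMIs, with ribosomal protein medians of 22.6% and, in the other 587, 21.5%. In the resistant TPF library the 7 deepest held 24.8%, with medians of 15.6% and, in the other 49, 20.6%.

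At equal depth the MALAT1/MT-low barcodes held fewer genes. Thinned to 10000 UMIs each, they had a median of 2356.5, 2806 and 2663 genes in the resistant TPF cinobufotalin, resistant TPF and FaDu cinobufotalin libraries, against 3413.5, 3444 and 3046 in comparison barcodes. Without thinning the medians were 3380, 5568.5 and 5265 genes, against 4904.5, 5968 and 4872, so that the order turned round in the FaDu cinobufotalin library. Ribosomal protein genes took a median of 27.3%, 20.3% and 21.8% of the thinned UMIs, against 13.7%, 13.4% and 17.5%. Genes per barcode were lower and the ribosomal protein share higher in 3 of 3 libraries. An exact two-sided sign-flip permutation test over 3 pairs cannot go below p = 0.25. The barcodes low in MALAT1 alone lay between, with 2851, 3114 and 2851 thinned genes and ribosomal protein shares of 18.2%, 16.7% and 19.0%.

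Among their nearest neighbours in the space of all other variable genes, MALAT1/MT-low barcodes held a mean of 50.5%, 18.7% and 39.95% of their own kind in the resistant TPF cinobufotalin, resistant TPF and FaDu cinobufotalin libraries. Comparison barcodes had 0.66%, 0.76% and 4.62% MALAT1/MT-low neighbours, and the barcodes low in MALAT1 alone 21.1%, 8.20% and 17.2%. The share of MALAT1/MT-low barcodes among all candidates was 2.56%, 1.23% and 11.7%. MALAT1 and the MT genes were left out of these 2000 genes, and the shares are a description with no test.

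For single genes, UMIs were summed over the MALAT1/MT-low and over the comparison barcodes of each library, and the 6 sums were compared with edgeR's quasi-likelihood test with the library as a block. MALAT1 and the MT genes were left out. The 3 libraries served as the replicates although their treatments differed, so the test asks for a difference shared by all 3. A gene is said to have risen or fallen in MALAT1/MT-low barcodes where its Benjamini-Hochberg adjusted p over all 7648 genes tested was under 0.05. Levels are TMM-scaled CPM of these sums, always given as resistant TPF cinobufotalin, resistant TPF and FaDu cinobufotalin. Of the 7648 genes, 1977 (25.8%) rose and 2107 (27.5%) fell, 415 (5.43%) and 534 (6.98%) of them by at least 2-fold, and the median log2 fold change was -0.02. Counts of genes that rose or fell in the lists below, with TMM scaling, are to be read beside the 25.8% and 27.5%.

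The direction of many genes depended on the scaling. With total UMIs in place of TMM factors the median log2 fold change of all genes was -0.61, and 518 genes (6.77%) rose and 4810 (62.9%) fell. Of the called genes 9.72% then rose, against 48.4% with TMM. List counts given below under total UMIs are to be read beside the 6.77% and 62.9%. Changes are therefore relative to the median gene, and genes that rose by less than the shift between these medians lie near or below 0 under total UMIs. The list medians of mitochondrial import, translation factors, proteasome subunits and cytoskeleton genes turned from above to below 0, as given below. Those of glycolysis (0.17 to -0.42), MHC class I (0.18 to -0.42) and ferritin and NRF2 targets (0.29 to -0.29) also turned. So did those of BCL2 family and apoptosis genes (0.03 to -0.56) and interferon-stimulated genes (0.02 to -0.57). UMIs per barcode are not RNA per cell, so absolute amounts were not measured.

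NEAT1, which the rule did not use, had the lowest log2 fold change of the 11 nuclear long noncoding RNAs tested. NEAT1, the long noncoding RNA that builds nuclear paraspeckles, had 132, 60.6 and 141 CPM in MALAT1/MT-low barcodes, against 1584, 1304 and 1406 CPM in comparison barcodes. The groups did not overlap, and the highest MALAT1/MT-low sum was far below the lowest comparison sum. The log2 fold change was -3.75 (SE 0.26, adjusted p = 4.53e-08 by edgeR). In thinned barcodes NEAT1 had a UMI in 46.3%, 42.9% and 54.7% of MALAT1/MT-low barcodes, against 99.5%, 99.4% and 99.8% of comparison barcodes. Of 11 nuclear long noncoding RNAs tested, 6 fell and 4 rose, with a median log2 fold change of -0.61 beside -0.02 for all genes. FTX, a noncoding gene of the X inactivation centre, fell by 3.08 and PVT1, a long noncoding gene next to MYC, by 1.10 on the log2 scale. HOTAIRM1, a short noncoding gene of the HOXA cluster, rose by 1.12, JPX by 0.60 and OIP5-AS1 by 0.56. Under total UMIs 1 of the 11 rose and 7 fell. Over all noncoding genes tested, 116 lincRNA genes had a median of 0.59, with 59.5% higher and 14.7% lower, and 114 antisense genes had a median of 0.56, with 63.2% higher and 12.3% lower. Under total UMIs these medians were 0.01 and -0.02.

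The protein coding genes that fell most spanned very long stretches of the genome. ZSWIM6, a zinc finger gene of 213898 bp on chromosome 5, had 8.41, 13.4 and 12.5 CPM in MALAT1/MT-low barcodes, against 126, 107 and 82.9 CPM in comparison barcodes. HDAC9, a histone deacetylase gene of 915468 bp on chromosome 7, had 22.7, 16.2 and 21.8 CPM, against 207, 210 and 121 CPM. EXT1, a heparan sulfate polymerase gene of 317364 bp on chromosome 8, had 35.2, 33.8 and 48.9 CPM, against 245, 213 and 218 CPM. In all 3 genes the 2 groups of sums were far apart in every library. Their log2 fold changes were -3.12 (SE 0.19), -3.01 (SE 0.19) and -2.50 (SE 0.16).

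Other genes among the 12 with the largest falls had log2 fold changes of -3.10 to -2.69. They were FER, a tyrosine kinase, RIMS2, a regulator of synaptic vesicle release, NFAT5, the transcription factor of osmotic stress, and ADAMTS17, a secreted metalloprotease. MYO16, a myosin, GPHN, the scaffold protein gephyrin, and NHS were also among them. These genes span 139573 bp in NFAT5 to 755347 bp in RIMS2. Their MALAT1/MT-low sums lay between 2.31 CPM (MYO16) and 18.5 CPM (RIMS2). These genes and ZSWIM6 thus reached the required mean of 20 CPM only through the comparison sums, which favours large falls. The remaining gene of the 12 was MTATP6P1 (log2 fold change -4.22), a nuclear copy of part of the mitochondrial genome that matches MT-ATP6 so closely that its reads cannot be assigned with certainty, so it follows the MT limit of the rule.

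**Figure D3:**
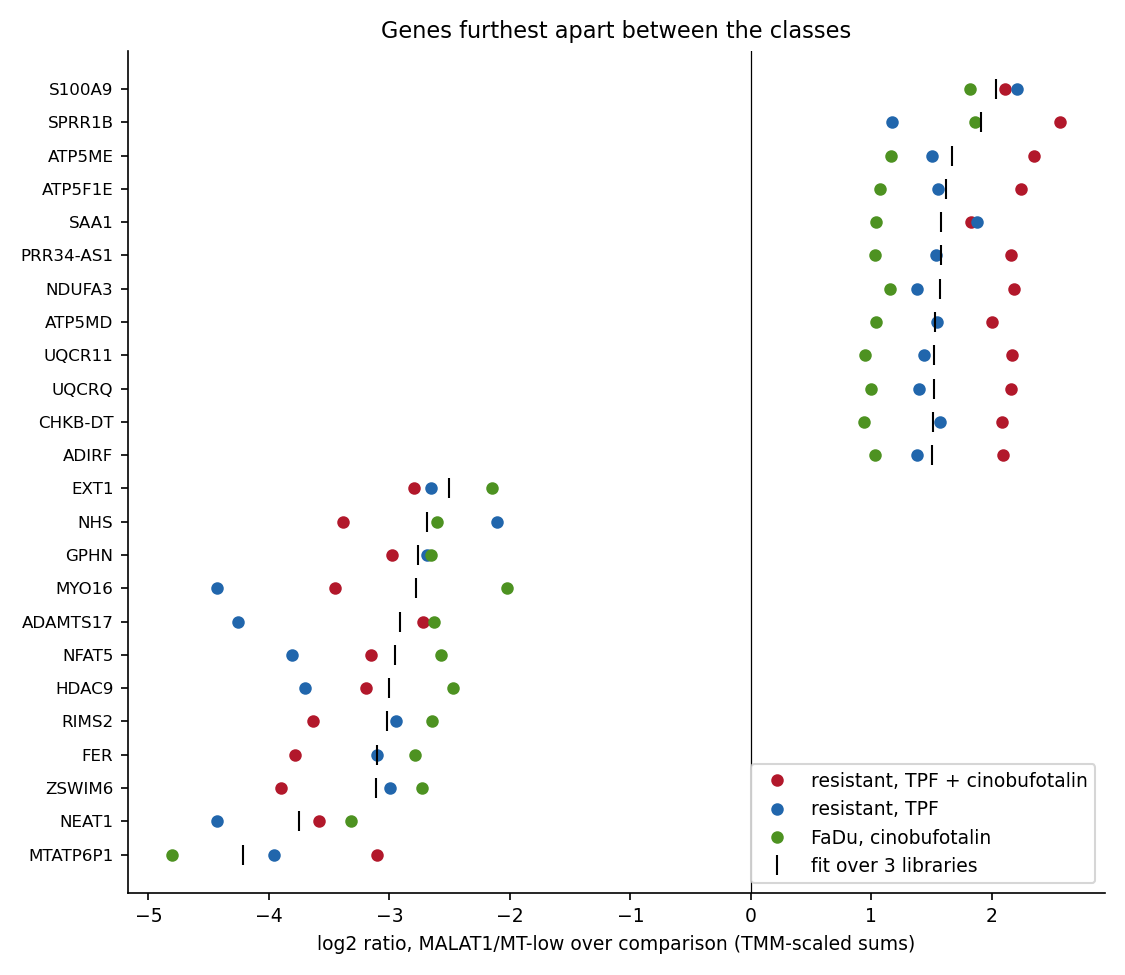
Log2 ratio of MALAT1/MT-low over comparison barcodes (x axis, TMM-scaled sums) for the 12 highest and 12 lowest genes by the fixed rule, 1 point per library and a tick for the fit over 3 libraries. Every point lies on the same side of 0 as its fit, and the resistant TPF cinobufotalin library has the highest ratio for most of the genes that rose.

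Gene length ordered the log2 fold changes. By genomic span, the median was 0.52 for 780 genes under 5 kb, 0.22 for 2017 genes of 5 to 20 kb, -0.04 for 2088 of 20 to 50 kb, -0.28 for 1358 of 50 to 100 kb, -0.51 for 896 of 100 to 200 kb and -0.79 for 509 of 200 kb or more. By the longest annotated transcript, it was 0.92 for 528 genes under 1 kb, 0.34 for 1558 of 1 to 2 kb, -0.03 for 2747 of 2 to 4 kb, -0.29 for 1491 of 4 to 6 kb and -0.51 for 1324 of 6 kb or more. The order was the same in each library. Of the genes with transcripts under 1 kb, 88.4% rose and 3.98% fell, and of those spanning 200 kb or more, 7.07% rose and 71.5% fell, beside 25.8% and 27.5% of all genes.

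Among genes spanning 5 to 20 kb, the median log2 fold change was 0.93 for 170 with transcripts under 1 kb, 0.37 for 680 of 1 to 2 kb, 0.09 for 853 of 2 to 4 kb and -0.13 for 84 of 6 kb or more. Among genes with transcripts of 6 kb or more, it was -0.13 for those spanning 5 to 20 kb, -0.21 for 274 of 20 to 50 kb, -0.45 for 361 of 50 to 100 kb, -0.76 for 379 of 100 to 200 kb and -0.91 for 226 of 200 kb or more. As a share of UMIs, genes spanning at least 100 kb took 4.05%, 5.14% and 4.21% in MALAT1/MT-low barcodes, against 9.33%, 9.06% and 6.86% in comparison barcodes. Genes spanning under 5 kb took 32.2%, 28.3% and 30.4%, against 24.2%, 23.6% and 26.7%. Genes are not independent replicates, so these medians are a description. Under total UMIs every bin lies lower, and the median stays above 0 for transcripts under 1 kb (0.32) and falls below it for spans under 5 kb (-0.08).

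**Figure D4:**
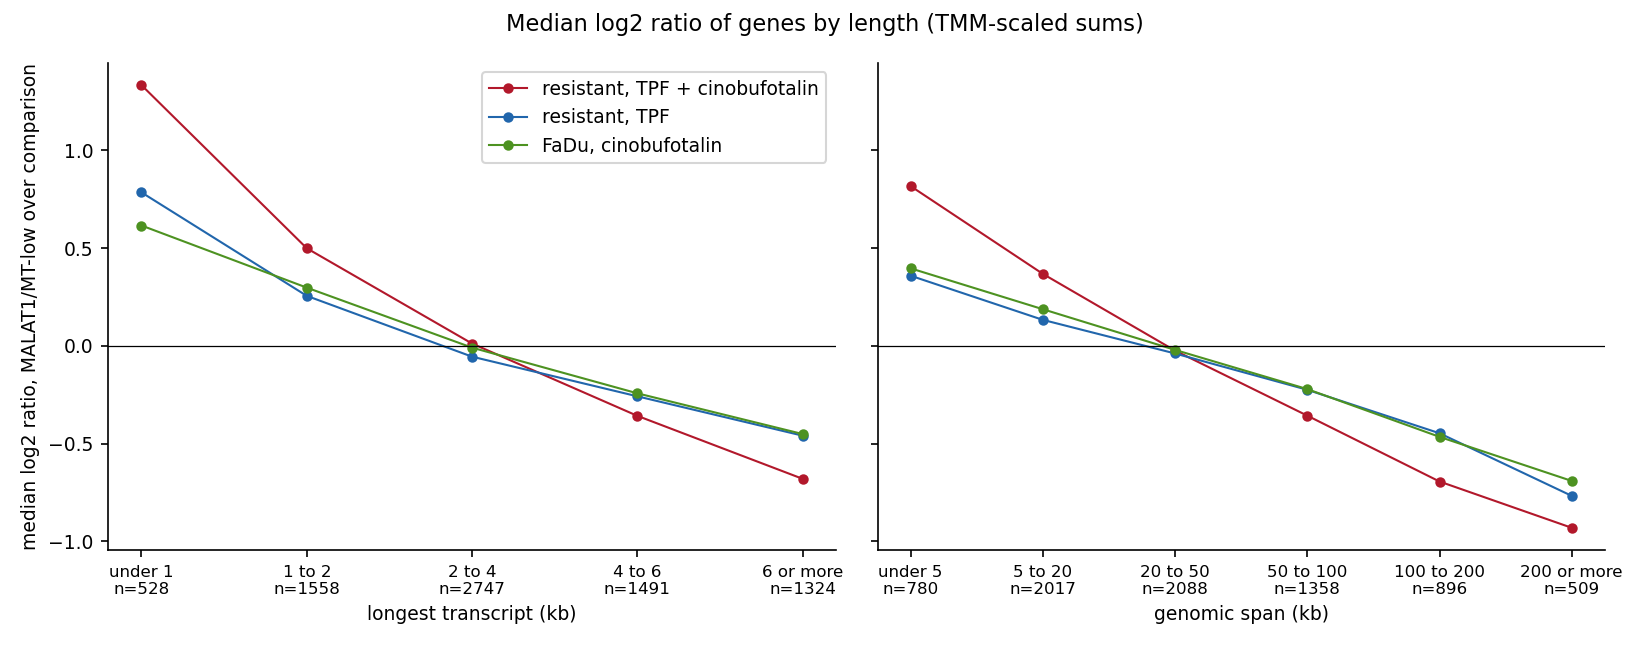
Median log2 ratio of MALAT1/MT-low over comparison barcodes (y axis, TMM-scaled sums) by longest transcript (left, kb) and genomic span (right, kb), 1 line per library, with the number of genes under each bin. The medians fall with each step of length in all 3 libraries, and the resistant TPF cinobufotalin line is the steepest.

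Regulators of chromatin encoded by long genes fell nearly throughout, as did most genes of like length. Of all genes with transcripts of 6 kb or more, 76.5% of those spanning 100 to 200 kb fell. Of those spanning 200 kb or more, 85.4% fell. The fall is therefore not shown to be particular to chromatin regulators. Of 28 tested, 25 fell, 0 rose and 3 (NCOR1, CHD4 and BRWD1) did not pass the test, with a median log2 fold change of -0.92 and a median span of 154.8 kb. ASH1L, a histone methyltransferase, had 23.5, 27.8 and 16.3 CPM in MALAT1/MT-low barcodes, against 70.2, 61.3 and 45.5 CPM in comparison barcodes. SETD2, which trimethylates histone H3 behind elongating polymerase, fell by 1.37, KMT2C by 1.27 and NIPBL, the cohesin loader, by 1.17 on the log2 scale. Under total UMIs 27 of the 28 fell. Of 18 zinc finger factors 12 fell and 1 rose (16 and 0 under total UMIs), with ZNF292 at -1.87 and ZNF706, a small gene product, at 0.83.

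Among 37 splicing factors 14 fell and 1 rose (35 and 0 under total UMIs), with a median log2 fold change of -0.23. TRA2A, a regulator of splicing, had 33.1, 29.6 and 23.3 CPM in MALAT1/MT-low barcodes, against 85.9, 60.1 and 55.8 CPM in comparison barcodes. It fell by 1.23 on the log2 scale, and SRSF6 rose by 0.46. Of 32 immediate early genes, which are switched on within minutes of a stimulus, 10 fell, a share near the 27.5% of all genes, and 0 rose, and under total UMIs all 32 fell. JUN had 191, 185 and 72.0 CPM, against 270, 303 and 116 CPM, a log2 fold change of -0.63 (SE 0.15). FOS, EGR1 and ATF3 did not pass the test, at 0.03, 0.03 and -0.25.

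Of 42 S phase genes 16 fell and 2 rose (median -0.28), and of 50 G2 and M phase genes 20 fell and 8 rose (median -0.10). Under total UMIs 38 fell and 0 rose of the S phase genes, and 38 fell and 1 rose of the G2 and M phase genes. POLA1, the catalytic subunit of DNA polymerase alpha and a gene of 303068 bp, fell by 1.96. CCNE2, a cyclin of S phase entry, fell by 1.01. MKI67, the proliferation marker, had 45.4, 50.9 and 29.9 CPM, against 76.4, 86.5 and 40.2 CPM, a log2 fold change of -0.63 (SE 0.13). UBE2C, a ubiquitin carrier of mitotic exit, rose by 0.89, CDK1 by 0.73 and CKS2, a small partner of CDK1, by 0.71. The longest annotated transcript measures 914 bp for UBE2C, 1948 bp for CDK1, 613 bp for CKS2 and 12678 bp for MKI67.

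Of 21 histone genes tested, 10 fell and 5 rose, and under total UMIs 15 fell and 2 rose. The linker histone gene HIST1H1B had 7.65, 24.1 and 11.4 CPM in MALAT1/MT-low barcodes, against 69.8, 68.4 and 19.7 CPM in comparison barcodes (log2 fold change -1.63, SE 0.28). HIST1H1D and HIST1H1E fell by 1.16 and 1.15. The variant genes H2AFJ, H2AFZ and H3F3A, whose messages carry a poly(A) tail, rose by 0.97, 0.93 and 0.79 on the log2 scale, while HIST1H4C was at 0.04 and did not pass the test.

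Among the genes with the largest rises, ATP5ME, a subunit of the mitochondrial ATP synthase, had 885, 496 and 446 CPM in MALAT1/MT-low barcodes, against 174, 175 and 199 CPM in comparison barcodes. The sums of the classes did not overlap, and the resistant TPF cinobufotalin value was the highest. Its log2 fold change was 1.67 (SE 0.22, adjusted p = 2.27e-05 by edgeR). It was seen in 99.4%, 94.6% and 93.4% of thinned MALAT1/MT-low barcodes, against 82.2%, 83.5% and 83.8%.

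Of 55 nuclear-encoded subunits of the respiratory chain and ATP synthase tested, 48 rose and 0 fell, with a median log2 fold change of 1.11. NDUFA3 of complex I rose by 1.57, UQCR11 of complex III by 1.52, COX7C of complex IV by 1.34 and ATP5F1E of the ATP synthase by 1.62. The larger core subunits UQCRC2, CYC1, ATP5F1A and ATP5F1B did not pass the test, at -0.03, 0.07, 0.23 and 0.24. Under total UMIs 44 of the 55 rose and 5 fell. The median longest transcript of the list was 1.18 kb. Of all genes with transcripts under 1 kb, 88.4% rose, and of those of 1 to 2 kb, 49.0% rose. Whether the list rose beyond genes of like length was not tested. Per barcode, the list took a median of 5.78%, 3.94% and 3.38% of thinned UMIs in MALAT1/MT-low barcodes, against 2.64%, 2.39% and 2.54% in comparison barcodes.

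Other mitochondrial proteins made from nuclear genes were mixed. Of 31 genes for import, chaperones and gene expression in the organelle 14 rose and 3 fell. The import subunits TOMM5 and TOMM7 rose by 1.39 each, and SLIRP, which binds mitochondrial messenger RNA, rose by 1.18. Its partner LRPPRC fell by 1.02, POLG, the mitochondrial DNA polymerase, by 0.80 and the chaperone HSPA9 by 0.59. TFAM, which packages mitochondrial DNA, was at -0.03 and did not pass the test. This list's median of 0.35 became -0.24 under total UMIs.

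Cytosolic ribosomal protein genes rose in 70 of 82 tested and fell in 0, with a median log2 fold change of 1.01 and library medians of 1.49, 0.89 and 0.64. RPL38, RPLP2 and RPLP1 were highest at 1.48, 1.46 and 1.44, and RPL3 and RPL4, products of longer genes of the family, did not pass the test at 0.13 and 0.35. Many have near-identical processed pseudogenes, between which reads cannot be assigned with certainty. With total UMIs 53 of the 82 rose and 2 fell. Small nucleolar RNA host genes, whose spliced transcripts are by-products of snoRNA processing and are abundant in the cytoplasm, rose in 12 of 16 and fell in 0 (median 0.61). SNHG5 had 591, 441 and 311 CPM, against 199, 199 and 211 CPM. Under total UMIs 2 of the 16 rose and 3 fell. The median longest transcript was 1.17 kb in the ribosomal protein list and 1.14 kb in the host gene list. Of all genes with transcripts under 1 kb, 88.4% rose, and of those of 1 to 2 kb, 49.0% rose. Whether either list rose beyond genes of like length was not tested.

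Translation factors did not follow the ribosomal proteins as a whole. Of 38 tested 14 rose and 5 fell, with a median of 0.19 that became -0.40 under total UMIs. FAU, which encodes a ribosomal protein fused to a ubiquitin-like protein, rose by 1.11, and EIF5B, a factor of ribosome subunit joining from a gene spanning 63974 bp, rose by 1.17. Proteasome subunits rose in 15 of 31 and fell in 1, with PSMA7 of the core particle at 0.99, and their median of 0.34 became -0.25 under total UMIs, with 1 higher and 12 lower. Actin, keratin and other cytoskeleton genes rose in 12 of 35 and fell in 1, and their median of 0.28 became -0.31, with 2 higher and 20 lower. GAPDH, a glycolytic enzyme, had 10090, 8185 and 11764 CPM, against 4137, 4080 and 6937 CPM, a log2 fold change of 1.02 (SE 0.34, adjusted p = 0.0189 by edgeR). Its median per barcode, as a share of that barcode's own UMIs, was 3963, 6997 and 9145 per 1000000, against 4616, 4680 and 6901, so that it was lower in MALAT1/MT-low barcodes of the resistant TPF cinobufotalin library. There 10 of the 162 barcodes held 39.1% of the GAPDH UMIs. The medians per barcode carry no TMM factors, unlike the sums. Of 19 glycolysis genes 4 rose and 1 fell (1 and 11 under total UMIs), and ACTB, at 0.30, did not pass the test.

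Of 33 genes of the endoplasmic reticulum 11 rose and 9 fell, shares near those of all genes, and under total UMIs 4 rose and 22 fell. SEC61G and SEC61B, small subunits of the translocon, rose by 1.27 and 1.14, and SSR4 and SPCS1, of the translocon-associated and signal peptidase complexes, by 1.20 and 1.09. HSPA5, the main chaperone of the compartment, fell by 0.69, CANX by 0.50 and PDIA3 by 0.45. Of 51 genes for secreted and plasma membrane proteins, which are translated on that membrane, 21 fell and 7 rose (40 and 2 under total UMIs). ITGA2 and ITGA6, integrins of the epithelial basal surface, fell by 1.36 and 1.18, EGFR by 0.87 and CD44 by 0.81, while LCN2, a secreted iron-binding protein, rose by 1.09 and TIMP1, a protease inhibitor, by 1.00.

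KRT17, a stress keratin, had 1218, 1516 and 2783 CPM in MALAT1/MT-low barcodes and 1071, 1487 and 2706 CPM in comparison barcodes, and did not pass the test (log2 fold change 0.08, SE 0.24). Its median per barcode was 677, 996 and 1720 per 1000000 UMIs, against 987, 1349 and 2264, lower in MALAT1/MT-low barcodes in 3 of 3 libraries. These medians are shares of each barcode's own UMIs without TMM factors, so they are not on the scale of the sums. The 10 barcodes with the most held 31.3%, 52.2% and 10.7% of the KRT17 UMIs. KRT5, a basal keratin, had 75.5, 86.5 and 155 CPM, against 48.7, 60.6 and 142 CPM, and rose by 0.41 (SE 0.14, adjusted p = 0.0217 by edgeR). It was at -0.18 under total UMIs. Of the 14 squamous markers 3 rose and 3 fell, shares below the 25.8% and 27.5% of all genes. KRT5, KRT14 and KRT18 rose, and CDH1, CDH3 and DSP, of cell junctions, fell by 0.61, 0.39 and 0.57. KRT14 and KRT18 rose by 0.34 and 0.60, and genes that rose by so little lie near or below 0 under total UMIs. In the resistant TPF library KRT14 was not higher, at 47.2 CPM against 47.5 CPM. TP63, the lineage transcription factor, was at -0.33 with an adjusted p of 0.0529 by edgeR.

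Differentiation genes of keratinocytes rose in 8 of 12 tested and fell in 2 (DSC2 and EMP1), and in 5 and 3 of 12 under total UMIs. UMIs of S100A9 and SPRR1B were concentrated in few barcodes. S100A9, a calcium-binding protein of inflamed and differentiating epithelium, had 62.0, 90.2 and 50.7 CPM in MALAT1/MT-low barcodes, against 14.4, 19.6 and 14.4 CPM in comparison barcodes, a log2 fold change of 2.04 (SE 0.14, adjusted p = 2.81e-08 by edgeR). The 10 barcodes with the most held 56.0%, 88.7% and 67.9% of its UMIs. In thinned barcodes it was seen in 22.2% (16.1% to 29.4%), 23.2% (12.98% to 36.4%) and 10.8% (8.59% to 13.4%), against 7.96% (7.22% to 8.74%), 10.5% (9.51% to 11.5%) and 5.28% (4.39% to 6.30%). SPRR1B, a precursor of the cornified envelope, rose by 1.91 and was seen in 20.4%, 21.4% and 9.503%, against 6.17%, 7.18% and 5.73%. In the FaDu cinobufotalin library, PI3, a protease inhibitor of stressed epithelium named here after its values were seen, had 1975 UMIs in MALAT1/MT-low barcodes, of which 1472 came from 1 barcode.

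Of 15 S100 and annexin genes 10 rose and 0 fell, and the division ran mostly between the families. The longest annotated transcript measures 577 bp for S100A9, 998 bp for S100A2 and 1202 bp for S100A10. Of all genes with transcripts under 1 kb, 88.4% rose. Whether the division goes beyond transcript length was not tested. All 9 S100 genes tested rose, with S100A10 at 1.46 and S100A2 at 1.32, whereas of the annexins ANXA3 rose and ANXA1, ANXA2, ANXA4, ANXA5 and ANXA11 did not pass the test at 0.07 to 0.26. Under total UMIs 7 of the 15 rose and 5 fell. SAA1, an acute phase protein, had 226, 236 and 103.3 CPM, against 63.8, 64.3 and 50.3 CPM (log2 fold change 1.58, SE 0.16). All 4 metallothioneins tested, small proteins that bind zinc and copper, rose, with MT2A at 1.25. Their median longest transcript was 0.71 kb, a length at which most genes rose. ADIRF, NDUFA3, ATP5MD, UQCRQ, PRR34-AS1 and CHKB-DT completed the 12 genes with the largest rises, at log2 fold changes of 1.499 to 1.57. HOTAIRM1, PRR34-AS1 and CHKB-DT are annotated as antisense genes, and since the use of strand in counting is not stated, their reads cannot be told from those of overlapping genes.

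Interferon-stimulated genes rose in 7 of 34 and fell in 9 (4 and 25 under total UMIs), shares near the 25.8% and 27.5% of all genes. The other list counts in this paragraph with TMM scaling stand beside the same values, and several lie near them. Those under total UMIs stand beside 6.77% higher and 62.9% lower of all genes. IFITM3 and IFITM1, short genes for membrane proteins that restrict viral entry, rose by 1.30 and 1.17, while DDX58, the RNA sensor RIG-I, and PARP14 fell by 1.28 and 1.11. Of 20 heat shock genes 2 rose and 3 fell, with HSPB1 at 1.24 and HSPA1B at -0.68, of 14 p53 targets 0 rose and 4 fell, with MDM2 at -0.96, and of 21 genes of the BCL2 family and apoptosis 6 rose and 2 fell, with BIK at 0.62. Under total UMIs 1 rose and 17 fell of the heat shock genes, and 0 rose and 13 fell of the p53 targets and likewise of the BCL2 family and apoptosis genes. Of 20 genes of the unfolded protein and integrated stress response 3 rose and 6 fell, of 16 for antigen presentation on MHC class I 5 rose and 3 fell, and of 15 ferritin and NRF2 targets 5 rose and 4 fell. Under total UMIs these counts were 1 and 17, 0 and 10, and 2 and 7. Of 10 ion transport genes 6 fell, among them the chloride cotransporter SLC12A2 at -1.61, and 2 rose, the small FXYD5 and FXYD3 at 1.22 and 1.16.

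**Figure D5:**
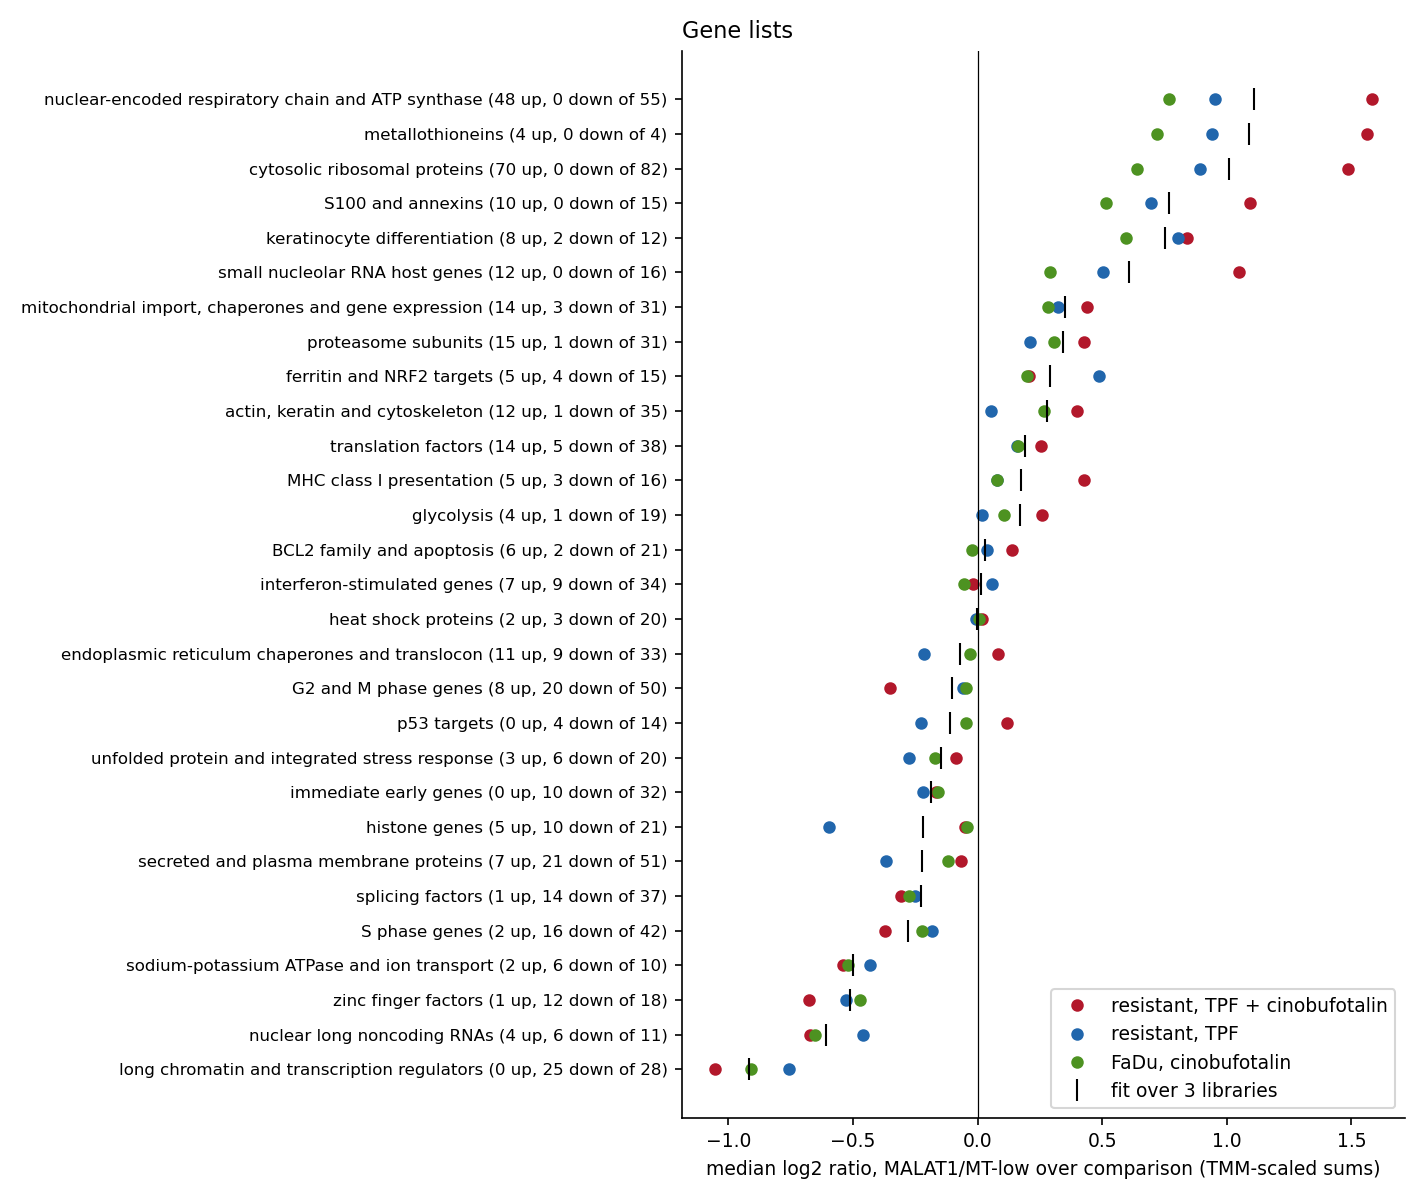
Median log2 ratio of MALAT1/MT-low over comparison barcodes (x axis, TMM-scaled sums) for 29 gene lists, 1 point per library and a tick for the fit over 3 libraries, with the number of genes that rose and fell of those tested beside each name. The resistant TPF cinobufotalin library has the highest median in the 3 lists at the top (1.58, 1.56 and 1.49) and the lowest in the list at the bottom (-1.05).

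The barcodes low in MALAT1 but with MT at 2% to 8% were compared in turn with each class, a comparison added after their number was seen. Both fits share these barcodes, so their values are given side by side only. MALAT1/MT-low over MALAT1-low barcodes gave 1065 genes higher (15.3%) and 916 lower (13.1%) of 6981, and MALAT1-low over comparison barcodes gave 1421 higher (17.8%) and 1759 lower (22.0%) of 8000. At least 2-fold apart were 4 higher (0.0573%) and 18 lower (0.258%) in the first, and 2 higher (0.025%) and 191 lower (2.39%) in the second. The ribosomal protein median was 0.51 in the first and 0.44 in the second fit. The nuclear-encoded respiratory chain median was 0.48 and 0.57, with 45 and 48 of 55 higher, and the chromatin regulator median was -0.47 and -0.51, with 20 and 19 of 28 lower. Interferon-stimulated genes were 12 higher and 3 lower of 34 in the first fit, against 3 higher and 12 lower of 34 in the second. Genes for secreted and plasma membrane proteins fell in 17 of 49 and 12 of 51.

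Differences between libraries within the MALAT1/MT-low barcodes were described without a test, as ratios with intervals for counting error. Genes other than those always named were picked by their ratio in these barcodes. TXNIP, a regulator of thioredoxin and glucose uptake, had 107, 117 and 18.7 CPM in MALAT1/MT-low barcodes and 137, 131 and 20.6 CPM in comparison barcodes. Its log2 ratio of resistant TPF over FaDu cinobufotalin was 2.64 (2.42 to 2.87) in MALAT1/MT-low and 2.67 (2.59 to 2.76) in comparison barcodes, so that the difference between libraries was present in both classes. KRT14, IGFL1, a secreted growth factor-like protein, and CCDC85B were lower in the resistant TPF than in the FaDu cinobufotalin library, at log2 ratios of -1.49, -2.06 and -1.51 in MALAT1/MT-low and -0.99, -1.44 and -1.31 in comparison barcodes. GAS5, a small nucleolar RNA host gene, was at 2.04 for resistant TPF cinobufotalin over FaDu cinobufotalin in MALAT1/MT-low barcodes and at 1.01 in comparison barcodes.

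Some ratios were larger in the MALAT1/MT-low class, but the genes were picked by level and ratio in that class, which favours such ratios. C1orf56 had 127 CPM in the resistant TPF cinobufotalin and 23.1 CPM in the resistant TPF library (log2 ratio 2.46, 2.04 to 2.91), against 25.4 and 14.5 CPM in comparison barcodes (0.81, 0.73 to 0.89). C1orf56 reached the required mean of 50 CPM only through the first of these sums. IFIT2, an interferon-induced protein, had 120 and 281 CPM (log2 ratio -1.23, -1.40 to -1.05), against 207 and 239 CPM (-0.21, -0.23 to -0.18). C15orf48 had a log2 ratio of 1.85 for resistant TPF over FaDu cinobufotalin, but 123 of its 206 UMIs in the resistant TPF MALAT1/MT-low barcodes came from 1 barcode. Among genes with a mean of at least 50 CPM in the MALAT1/MT-low barcodes of the pair, 2-fold differences between libraries were counted. The MALAT1/MT-low sums hold far fewer barcodes, so the counts of the 2 classes are not a like comparison. For resistant TPF cinobufotalin over resistant TPF, 35 of 2576 genes (1.36%) were higher and 8 (0.311%) lower in MALAT1/MT-low barcodes, against 1 (0.0388%) and 0 in comparison barcodes. For resistant TPF over FaDu cinobufotalin, 45 of 2569 (1.75%) were higher and 61 (2.37%) lower, against 13 (0.506%) and 35 (1.36%). For resistant TPF cinobufotalin over FaDu cinobufotalin, 133 of 2591 (5.13%) were higher and 37 (1.43%) lower, against 18 (0.695%) and 67 (2.59%). With total UMIs the counts in MALAT1/MT-low barcodes were 1 and 47, 64 and 26, and 36 and 86, so the direction of the balance turned with the scaling in each pair.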

How the data were processed

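The authors deposited raw UMI counts, 1 matrix for each of 3 libraries; the submitters' processing notes name Cell Ranger 7.0 and hg38. Annotation, strand and the use of intronic reads: not given in the sources used here. Each of the 58735 feature IDs matched GENCODE release 29 (GRCh38), which gave spans, transcript lengths and types. Barcodes had at least 500 UMIs as deposited, and none was removed beyond the rule. The members and the 28 gene lists, beside the list of ribosomal protein genes, were chosen with earlier results of these data known.

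UMIs were summed per library and class and tested with edgeR 4.0.16 (R 4.3.3): quasi-likelihood F-test, library as a block (both classes of a library come from the same sample), TMM factors, genes whose 6 sums averaged 10 CPM or more, and Benjamini-Hochberg adjustment at 0.05. MALAT1 and the 37 MT genes were left out of sums and totals. No replicate library exists, so the class difference is set against its spread over 3 differently treated libraries. The test pools information on that spread across genes, and each SE was derived from its F statistic. P-values and SEs therefore do not measure a gene's own spread over the libraries alone. HIST1H1B, with an SE of 0.28, had log2 ratios of -3.19, -1.51 and -0.79 in the 3 libraries. Per-barcode values were taken after thinning to 10000 UMIs. Neighbours were the 15 nearest over 30 principal components of 2000 variable genes (Python 3.11.15, numpy 2.4.6, scipy 1.17.1, pandas 2.3.3, scikit-learn 1.9.0). Free RNA was not corrected for.

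Genes were named by rule: the 12 highest and 12 lowest log2 fold changes with an adjusted p under 0.05, a mean of at least 20 CPM and the same direction in all libraries, leaving out clone-named and ribosomal protein genes; then, for each list, up to 4 members by size; and NEAT1, KRT5, KRT17, MKI67, TXNIP, GAPDH and ACTB always. The mean of 20 CPM was taken over both classes, so a gene could reach it through its higher class alone, which favours large changes. S100A9, SPRR1B and CHKB-DT reached it only through the MALAT1/MT-low sums. Other list members are named as examples, chosen after their values were seen. Between libraries the 6 highest and lowest ratios within MALAT1/MT-low barcodes were used, at a mean of at least 50 CPM there. On simulated counts for the main comparison (8318 genes), 50 of 50 genes at a log2 change of 1, 50 of 50 at -1, 37 of 50 at 0.6 and 32 of 50 at -0.6 were called, and 7 of 8118 unchanged genes. The simulated classes were otherwise alike, with as many genes raised as lowered and 1 dispersion for all genes. The simulation therefore does not give the error rate where many genes change and scalings disagree, as in these data. Alternatives were total UMIs, DESeq2 1.42.0, other limits on low genes, thinned sums, UMI-matched barcodes, other limits of both classes, no block, totals without ribosomal protein genes, leaving out very deep barcodes and leaving out each library.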

Additional observations from a re-analysis of the deposited data

Results flagged for a closer look

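The median log2 fold change of 21 genes of the BCL2 family and apoptosis, MALAT1/MT-low over comparison barcodes, was 0.14 for resistant TPF cinobufotalin and 0.04 for resistant TPF, and -0.0215 for FaDu cinobufotalin. It is listed because its sign differs between the FaDu library and both resistant libraries, and the difference was not tested. The FaDu value lay near the median of all genes in that library, -0.0156. Under total UMIs the list median over the libraries was -0.56. The lines also differ in treatment, so line and treatment cannot be told apart.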

How the results depend on the processing

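The counts of 1977 genes higher and 2107 lower depended on the processing. They were 518 and 4810 with total UMIs, 1281 and 1222 with thinned barcodes, 924 and 848 with UMI-matched barcodes, 3112 and 3287 at a mean of at least 1 CPM, 2840 and 4300 with no filter beyond 1 UMI, 1328 and 1368 without barcodes over 2 times the median UMIs, and 1127 and 1190 with no replicate block. DESeq2 gave 1943 and 1821. Leaving out 1 library gave 1437 to 1855 higher and 1717 to 2036 lower. The other alternatives stayed within 1.5 times. Of 129 named genes that passed the test, 102 to 129 passed in the same direction under each setting except UMI-matched barcodes, where 86 did. Under total UMIs KRT5 and CACYBP turned to -0.18 and -0.14, and with UMI-matched barcodes MYL9 turned to -0.11, none past the threshold. UMI matching leaves fewer barcodes; the cause was otherwise not tested.

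The share of MALAT1/MT-low barcodes was 1.66%, 0.832% and 7.74% at stricter limits (MALAT1 0.05%, MT 0.25%) and 3.75%, 2.52% and 16.4% at looser ones (0.2%, 1%), in the order resistant TPF cinobufotalin, resistant TPF and FaDu cinobufotalin. It was 14.5% in the last at 20000 UMIs, 1.78% in the resistant TPF library at 5000 UMIs, and 2.15% and 9.27% in the first and last without barcodes over 2 times the median UMIs, an alternative added after the data were seen. The order of the libraries held in each. Without thinning, MALAT1/MT-low barcodes of the FaDu cinobufotalin library had a median of 393 more genes than comparison barcodes. Genes at least 2-fold apart between libraries within the MALAT1/MT-low barcodes numbered 43 and 170 for resistant TPF cinobufotalin over resistant TPF and over FaDu cinobufotalin, and 274 and 411 with thinned barcodes (added after the data were seen). The resistant TPF library gives 56 MALAT1/MT-low barcodes, which limits its precision.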
